A study of Arabidopsis thaliana with 6 samples.

Results

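The Aux/IAA genes encode short-lived nuclear repressors of the auxin response. Auxin holds an Aux/IAA protein to its receptors, the TIR1/AFB F-box proteins of an SCF ubiquitin ligase, and the repressor is then degraded. While an Aux/IAA protein is present it binds auxin response factors (ARFs) and recruits TOPLESS-type corepressors to their target genes. ECT2 is a YTH-domain protein of Arabidopsis that binds N6-methyladenosine in RNA, and FA-CLIP was used here to locate the RNA it contacts. Whether and where ECT2-precipitated RNA maps to Aux/IAA transcripts is the question taken up below.

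The genes described are 10 of the 33543 genes in the input tables, taken from a list of loci by name. The rule uses no measured value, but the list was drawn up with earlier results of these data known. They are IAA8 (AT2G22670), IAA9 (AT5G65670), IAA27 (AT4G29080), IAA7 (AT3G23050), IAA14 (AT4G14550), IAA16 (AT3G04730), IAA17 (AT1G04250), IAA1 (AT4G14560), IAA2 (AT3G23030) and IAA3 (AT1G04240). All 10 were found in both input tables, and 8 of the 10 had at least 1 listed site in an FA-CLIP library. Another 19 Aux/IAA genes were kept apart as a separate list.

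FA-CLIP libraries were made from formaldehyde-crosslinked 14-day-old seedlings of the ect2 T-DNA mutant (SALK_002225) carrying a transgene labelled ECT2:ETC2-Flag, read here as Flag-tagged ECT2 under its own promoter, and were precipitated with anti-Flag. Mock libraries came from the same precipitation applied to wild-type Col-0, which has no tag. Input libraries were the RNA of the transgenic seedlings before precipitation. There were 2 libraries in each of the 3 groups, all from whole Col-0 background seedlings, so a lower RNA level per cell and fewer cells of an expressing type cannot be told apart. The labels do not say whether the replicates were separate cultures, so p-values measure the spread between these libraries, which may be technical. The labels give neither the number of transgenic lines nor the level of the tagged protein.

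The FA-CLIP libraries listed 41707 and 41471 sites with 901178 and 830355 conversion events, and the mock libraries listed 3440 and 3848 sites with 489805 and 653262 events. Conversion events are the count that the deposited lists give for each site. How they were scored is not described in the labels, and the lists hold sites of 2 or more events. A gene without a site is given 0 events, which sets no upper limit on its signal. Nuclear protein-coding genes held 54.6% and 66.0% of the events in FA-CLIP, against 6.23% and 5.56% in mock. Input values are FPKM, that is, fragments scaled to transcript length and library size. A single locus, AT2G01021, took 33.4% and 57.5% of the summed FPKM of the 2 input libraries. Input and precipitates were prepared with different library kits, so effects of the kit and of the precipitation cannot be told apart in any ratio between them.

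The sequences below come from sites with many events in 6 of the genes, as RNA read from the reference genome (TAIR10.1, whose nuclear chromosomes contain every site listed). Each is the stretch shared by the pair of overlapping sites, 1 from each FA-CLIP replicate, with the most events in the gene (for IAA8 the 2 pairs with the most), or its middle 30 nt, 5′ to 3′. In IAA9 and IAA17 another stretch, in which several listed sites join, held more events in all. Capitals mark matches to URUAY (UNUAN with A or G as second and C or U as last base), a motif searched as an ECT2-related element, or to DRACH (NNACN with no C as first, A or G as second and no G as last base), the consensus around methylated adenosines. All lie in the 3′ UTR.

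IAA8 first site, chr2:9638581-9638610, plus strand: ucucuuauuugugugugcuuguucaAAACA

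IAA8 second site, chr2:9638551-9638566, plus strand: uuuacuaauuuguguu

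IAA9, chr5:26256151-26256180, plus strand: aagcuuucUAACUAUACaaaauaugugcga

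IAA17, chr1:1138487-1138511, plus strand: auaguuUGUAUgcuauuauguguaa

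IAA7, chr3:8196809-8196830, plus strand: UAUAUAUguguguuguaauuuu

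IAA16, chr3:1288755-1288784, minus strand: aUAUAUuaauaUGUAUAUuuaauuagguug

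IAA27, chr4:14323482-14323511, minus strand: cucuuccucuuacuucuuucucuaaucaau

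The stretches of IAA9, IAA17, IAA7 and IAA16 hold a URUAY match, and those of IAA8 and IAA27 do not. The first IAA8 stretch ends in a DRACH match, and its second stretch holds neither motif. Uracil makes up 14 of the 30 nt of the first IAA8 stretch and 10 of the 16 nt of the second. It makes up 15 of 30 nt in both IAA16 and IAA27, 13 of 22 in IAA7, 12 of 25 in IAA17 and 9 of 30 in IAA9. Uracil content thus does not set the IAA8 stretches apart.

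The clade of IAA8, IAA9 and IAA27, repressors that are close relatives of each other, was listed in both FA-CLIP libraries for all 3 genes. IAA8 had 422 and 460 events in the FA-CLIP libraries, against 0 and 3 in the mock libraries. Its input was 65.9 and 58.3 FPKM. Both FA-CLIP libraries were far above both mock libraries, and IAA8 stood at rank 181 of 26690 nuclear protein-coding genes by FA-CLIP events per gene, not scaled to length. Over both libraries of a group and relative to all events, IAA8 was 194 times as abundant in FA-CLIP as in mock, with a 95% exact interval of 66.2 to 943 that covers counting error only. The ratio depends strongly on the total used, since nuclear protein-coding genes held far more of the FA-CLIP events than of the mock events. With events in those genes as library size, edgeR's log2 fold change for IAA8 was 4.25 ± 0.92 (SE), against 7.56 ± 0.99 with all events.

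IAA9, known from leaf development in several species, had 94 and 123 events in FA-CLIP, against 0 and 2 in mock. Its input of 65.8 and 60.1 FPKM was within the range of IAA8. IAA27, also called PAP2, had 21 and 31 events in FA-CLIP and was not listed in either mock library. Input for IAA27 was 13.5 and 12.1 FPKM. In neither gene did the FA-CLIP and mock libraries overlap.

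The clade of IAA7, IAA14, IAA16 and IAA17 includes genes whose stabilising mutations give strong auxin-resistant seedlings, among them AXR2 (IAA7), SLR (IAA14) and AXR3 (IAA17). IAA17 had 46 and 79 events in FA-CLIP and none in mock, at an input of 21.8 and 20.2 FPKM. IAA7 had 42 and 63 events in FA-CLIP and none in mock, at the highest input of the 10 genes, 80.4 and 75.9 FPKM. Both genes were thus listed in FA-CLIP and not in mock.

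IAA16 had 32 and 54 events in FA-CLIP, against 0 and 2 in mock, at an input of 61.5 and 57.7 FPKM. IAA14, whose stabilised form blocks lateral root formation, had 4 and 7 events in FA-CLIP and none in mock, at an input of 5.72 and 5.80 FPKM. The order of the 7 genes listed in both FA-CLIP libraries, by mean FA-CLIP events, was IAA8, IAA9, IAA17, IAA7, IAA16, IAA27 and IAA14. The order was the same in events per kb of transcript. On that scale IAA8 and IAA9 did not overlap between libraries, nor did IAA7 and IAA16 or IAA27 and IAA14, while the other neighbours in the order did.

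The related genes IAA1, IAA2 and IAA3 gave little or no FA-CLIP signal. IAA1, a rapidly auxin-induced gene, and IAA3, known as SHY2 and for its part in root meristem size, had no listed site in any FA-CLIP or mock library. Input for IAA1 was 7.58 and 8.40 FPKM and for IAA3 7.17 and 7.04 FPKM. IAA2 had 2 and 0 events in FA-CLIP, against 2 and 0 in mock, so its groups overlapped completely. Its input was 22.2 and 24.2 FPKM, slightly above that of IAA17 in both libraries.

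**Figure D1:**
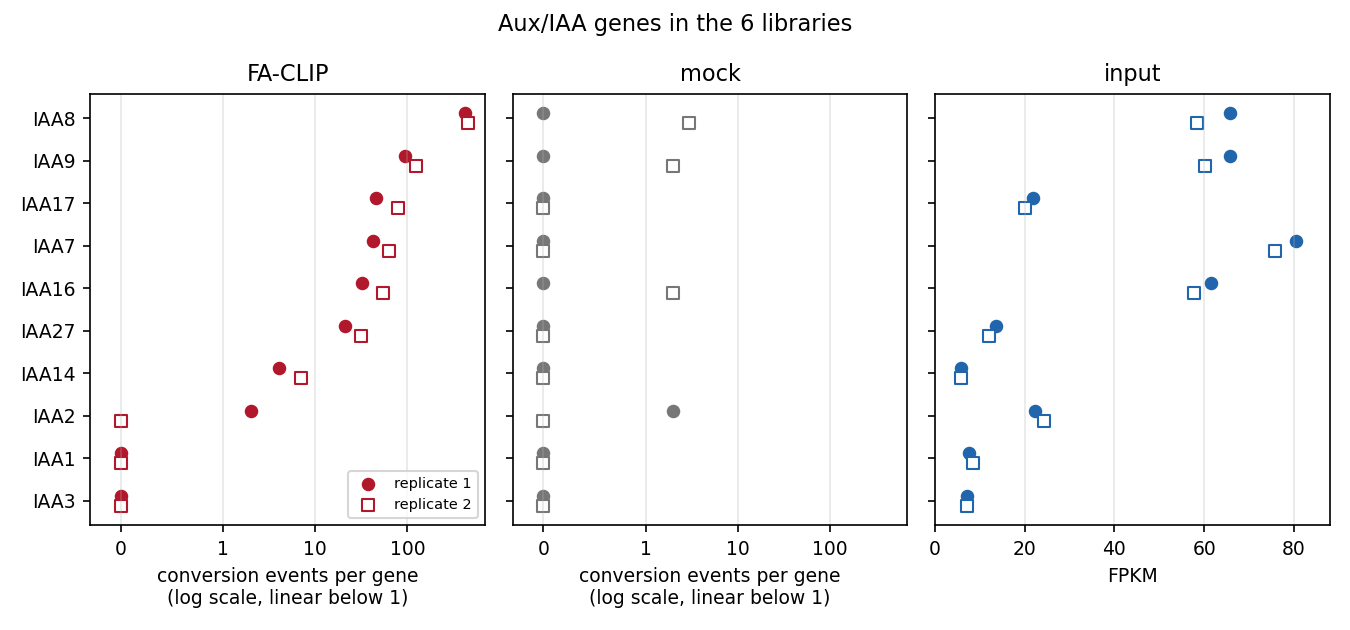
Conversion events per gene in the FA-CLIP and mock libraries (log scale, linear below 1) and FPKM in the input libraries, with 1 point per library for each of the 10 Aux/IAA genes. FA-CLIP events span 0 to 460, mock events 0 to 3, and the 7 uppermost genes have events in both FA-CLIP libraries.

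IAA1, IAA2 and IAA3 each stand beside another of the 10 genes in the genome, head to head. IAA14 and IAA1 lie 10732 nt apart, IAA2 and IAA7 12510 nt, and IAA3 and IAA17 6388 nt, each on opposite strands with 1 annotated gene and no protein-coding gene between. In every pair one gene had a site in both FA-CLIP libraries (IAA14, IAA7 and IAA17) and the other did not. The gene with such a site had the higher input in 2 of the pairs (IAA7 and IAA17) and the lower input in the pair of IAA14 and IAA1. IAA4 (AT5G43700), another relative of IAA1 to IAA3 and picked here after its values were seen, had 5 and 18 events in FA-CLIP, none in mock, and 13.3 and 12.8 FPKM in input. Its sites overlapped between the FA-CLIP libraries at 2 places, and 76.1% of genes between 10 and 25 FPKM had such an overlap. The low signal of IAA1, IAA2 and IAA3 was thus not shared by this relative, whose input was above that of IAA1 and IAA3 and below that of IAA2. IAA4 is among the 4 of the 19 other Aux/IAA genes that had such an overlap.

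A site was called reproducible where sites of both FA-CLIP replicates overlapped by at least 1 nt on the same strand. Of the 10 genes, 7 had such a site, against 31.5% of all 26690 nuclear protein-coding genes. Within the input range of the 10 genes, 5.76 to 78.1 FPKM, 71.4% of 8156 genes had one, so the 7 of 10 stand at the background for genes of that input. The outcome followed input in part. Of the 4 Aux/IAA genes between 50 and 80 FPKM all 4 had a reproducible site, against 85.2% of 452 genes in that band. Between 10 and 25 FPKM 2 of 3 had one, against 76.1% of 3312 genes, and between 5 and 10 FPKM 1 of 3, against 57.7% of 3982 genes.

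Events per gene, not scaled to length, spread widely within each band. Between 50 and 80 FPKM the middle 50% of genes had 20 to 177.5 mean events, with a median of 84. IAA8, with a mean of 441 ± 26.9 events (SD, n = 2), lay above that range, and IAA9 with 108.5 ± 20.5, IAA7 with 52.5 ± 14.8 and IAA16 with 43 ± 15.6 lay inside it. Between 10 and 25 FPKM the middle 50% had 5 to 35.5 events. There IAA17 lay above it with 62.5 ± 23.3 events, IAA27 inside it with 26 ± 7.07, and IAA2 below it with 1 ± 1.41. Between 5 and 10 FPKM the middle 50% had 1.5 to 14 events, with a median of 6. IAA14 lay inside that range with 5.5 ± 2.12, and IAA1 and IAA3, with 0 events, lay just below it.

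**Figure D2:**
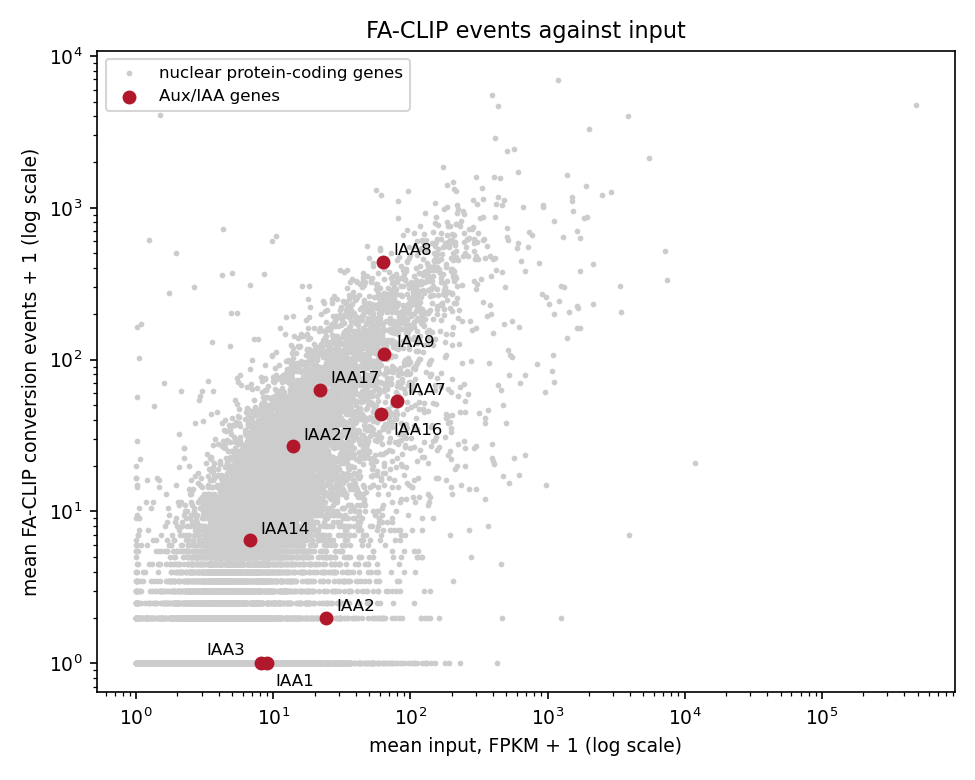
Mean FA-CLIP conversion events plus 1 against mean input FPKM plus 1, both on log scales, with all nuclear protein-coding genes in grey and the 10 Aux/IAA genes in red. IAA8, at a mean of 441 events and 62.1 FPKM, lies in the upper part of the cloud, and IAA1, IAA2 and IAA3 lie on its lower edge.

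Set per kb of transcript, the contrast among the genes of similar input was plain. IAA8 had 259 and 282 events per kb and IAA9 48.2 and 63.1. IAA7 had 31.5 and 47.3 events per kb, and IAA16 had 15.8 and 26.7. The IAA8 density was 5.37 and 4.47 times that of IAA9 in FA-CLIP replicates 1 and 2, at input ratios of 1.00 and 0.97. It was 8.22 and 5.97 times that of IAA7 at input ratios of 0.82 and 0.77, and 16.4 and 10.6 times that of IAA16 at 1.07 and 1.01. IAA8 alone held 63.7% and 56.3% of the 663 and 817 events of the 10 genes in FA-CLIP, and 18.7% and 17.7% of their summed FPKM in input.

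A recovery score put both measures together: 1 was added to the mean events in FA-CLIP, this was divided by the mean input and by the kb of the transcript, and log2 was taken. The median score of the 10 genes was -0.56, against -0.94 for 16960 nuclear protein-coding genes of 1 FPKM or more. With libraries joined by replicate number, which is not taken to pair them, the 10 genes had medians of -0.88 and -0.29. Without FA-CLIP replicate 2 the median was -0.82 for the 10 genes and -1.11 for all genes. Leaving out FA-CLIP replicate 1 instead gave -0.34 and -0.92. The order turned round with no FPKM minimum, where all genes had a median of -0.22, and the medians were -0.13 and -0.20 without division by length, so no direction is read from them. The scores of the 10 genes ran over nearly the whole range. IAA8 scored 2.13, at percentile 97.4 of all genes, IAA17 1.2 at percentile 90.0, and IAA27 0.55 at percentile 80.2. IAA14 scored 0.11 and IAA9 -0.17, while IAA7 with -0.96 and IAA16 with -1.46 stood near or below the middle of all genes.

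At the low end IAA1 scored -2.92 at percentile 12.6, IAA3 -3.27 at percentile 8.83 and IAA2 -3.98 at percentile 4.0. For IAA1 and IAA3, whose events are 0, the score is set by the pseudocount of 1. The score of IAA14 rests on the 1045-nt transcript with its longest CDS, and with its longest transcript it was -0.61. IAA7, the gene of the highest input, thus stood near the middle of all genes.

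**Figure D3:**
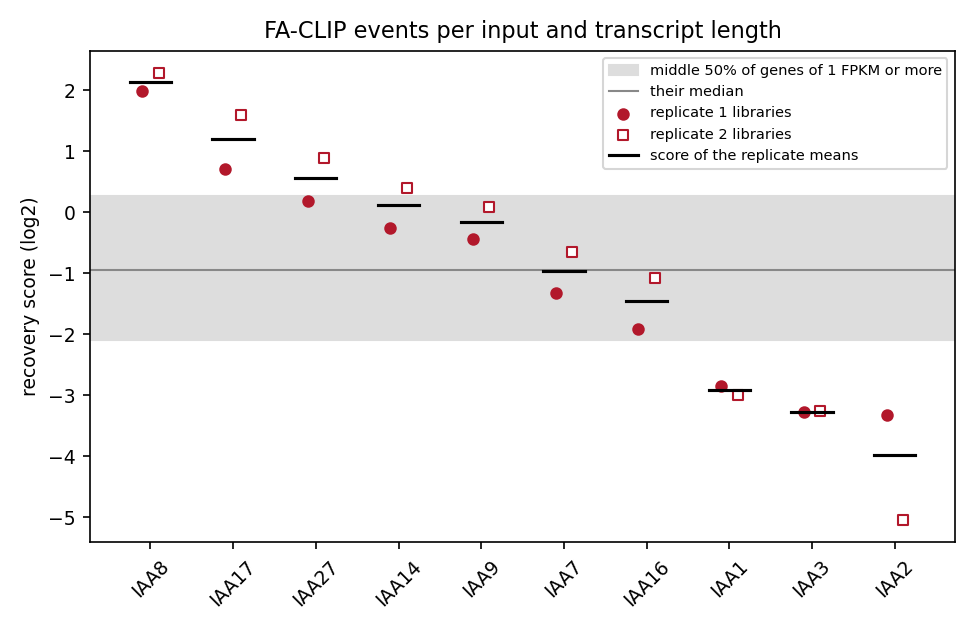
Recovery score of the 10 Aux/IAA genes, log2 of FA-CLIP events plus 1 per input FPKM and kb of transcript, with 1 point per replicate number and a bar for the score of the replicate means. The grey band is the middle 50% of 16960 genes, -2.09 to 0.27, and IAA8, IAA17 and IAA27 have their bars above it.

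FA-CLIP was tested against mock with edgeR's quasi-likelihood test on the events summed per gene, with Benjamini-Hochberg adjustment over 8821 genes that had at least 10 events in the 4 libraries. Of the 10 genes 7 reached that minimum and all 7 were called higher in FA-CLIP at an adjusted p of 0.05, where 90.3% of all genes tested were. A gene that reached the minimum through its FA-CLIP events had little room to do otherwise, so the count says nothing particular about Aux/IAA genes. The log2 fold change was 7.56 ± 0.99 for IAA8 (SE, edgeR adjusted p = 4.27e-13), 6.06 ± 0.89 for IAA9 (5.56e-11) and 4.73 ± 0.86 for IAA16 (1.17e-07). For genes with no mock site the fitted fold depends on the prior count. Their edgeR adjusted p was 1.85e-11 for IAA17, 8.46e-11 for IAA7, 2.03e-07 for IAA27 and 0.0187 for IAA14.

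With events in nuclear protein-coding genes as the library size, 31.6% of genes tested were called higher. The median log2 fold change of all genes tested fell from 6.56 to 5.82. It fell further in the tested Aux/IAA genes with mock events, from 7.56 to 4.25 in IAA8, 6.06 to 2.79 in IAA9 and 4.73 to 1.45 in IAA16. This was not particular to Aux/IAA genes. ARF6 and ARF4, which also have mock events, went from 2.65 to -0.61 and from 2.50 to -0.73. IAA17 and IAA7, with no mock events, went only from 8.72 to 8.05 and from 8.46 to 7.80. IAA8, IAA9, IAA17 and IAA7 were among the genes called, with an edgeR adjusted p of 0.00478 and a log2 fold change of 4.25 ± 0.92 (SE) for IAA8. IAA16, IAA27 and IAA14 were not, at adjusted p of 0.213, 0.0524 and 0.312. Without either FA-CLIP replicate edgeR's test called 0 genes in all, with 3162 and 2747 genes at an unadjusted p under 0.05, so every edgeR call here needs both FA-CLIP libraries. IAA14 was also lost without either mock replicate (edgeR adjusted p = 0.0684 and 0.0967).

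The 7 genes had 31 reproducible sites, 11 of them in IAA8, 5 each in IAA7 and IAA16, 4 each in IAA9 and IAA17, and 1 each in IAA27 and IAA14. By the midpoint of the site, 20 of the 30 sites that lay in the transcript with the longest CDS were in the 3′ UTR, 6 in the CDS and 4 in the 5′ UTR. The 3′ UTR share was 66.7% (95% exact interval 47.2 to 82.7), beside 72.7% for all 20233 such sites of nuclear protein-coding genes. The remaining site, in IAA14, lies beyond that transcript, which has no annotated 3′ UTR, and inside the 699-nt 3′ UTR of the longest IAA14 transcript, 171 and 184 nt from its stop codon in the 2 libraries.

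Midpoints of the sites in the 3′ UTR lay 15 to 343 nt after the stop codon, with a median of 158.5 nt for the 20 sites, against 116 nt for all genes. As a share of the 3′ UTR this was a median of 33.5%, against 40.3%. The longest 3′ UTR of the 10 genes, the 838 nt of IAA16, had its last reproducible site 343 nt after the stop codon.

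**Figure D4:**
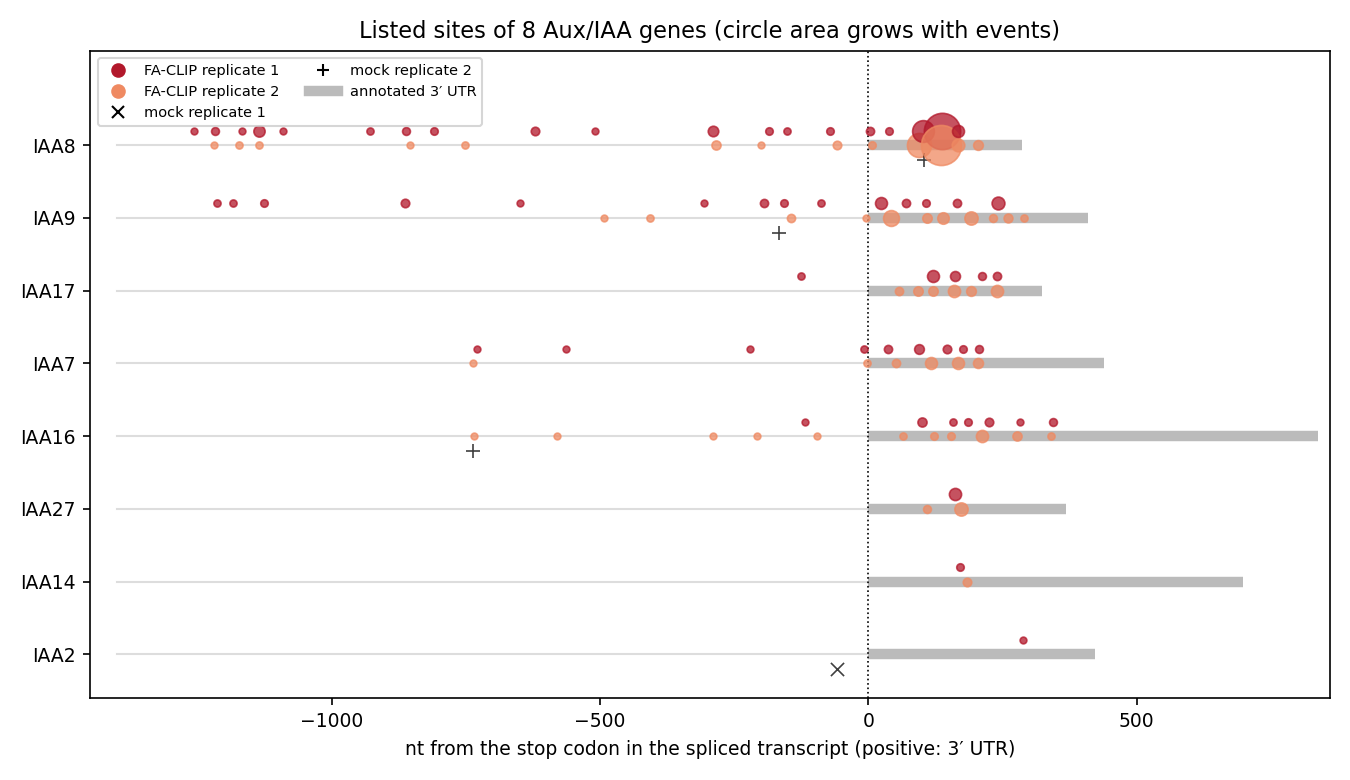
Listed sites of 8 Aux/IAA genes by distance from the stop codon along the spliced transcript, with circles for FA-CLIP replicates 1 and 2 (area grows with events), crosses for mock sites and a grey bar for the annotated 3′ UTR. The IAA8 circles 95 to 137 nt after the stop codon are the largest, and mock sites appear in IAA8, IAA9, IAA16 and IAA2.

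The share of a gene's events that fell in the 3′ UTR differed between genes and replicates. It was 82.5% and 93.3% in IAA8, 63.8% and 89.4% in IAA9, 93.5% and 100% in IAA17, and 78.6% and 92.1% in IAA7. In IAA16 it was 93.75% and 81.5%, and in IAA27 all events of both libraries were in the 3′ UTR. FA-CLIP replicate 1 listed more sites outside the 3′ UTR than replicate 2 in IAA8, IAA9, IAA17 and IAA7, and IAA16 went the other way.

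A single site carried most of the IAA8 signal. Between bases 9638578 and 9638614 of chromosome 2, 137 nt after the stop codon of a 286-nt 3′ UTR, lay 237 and 290 events, which are 56.2% and 63.0% of the gene's events. Both replicates placed its start at the same base. The adjoining upstream site, from 9638542 to 9638571, held 81 and 101 events, and the adjoining downstream one, from 9638616 to 9638639, held 20 and 23. These 3 sites together cover a stretch of less than 100 nt.

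The other 8 reproducible IAA8 sites had 2 to 17 events per library, in the 5′ UTR for 3 of them, the CDS for 4 and the start of the 3′ UTR for 1. The largest of them in replicate 1, a 5′ UTR site at 9636573 to 9636602, had 17 events in replicate 1 and 3 in replicate 2. That is the widest gap between replicates among these 8 sites.

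**Figure D5:**
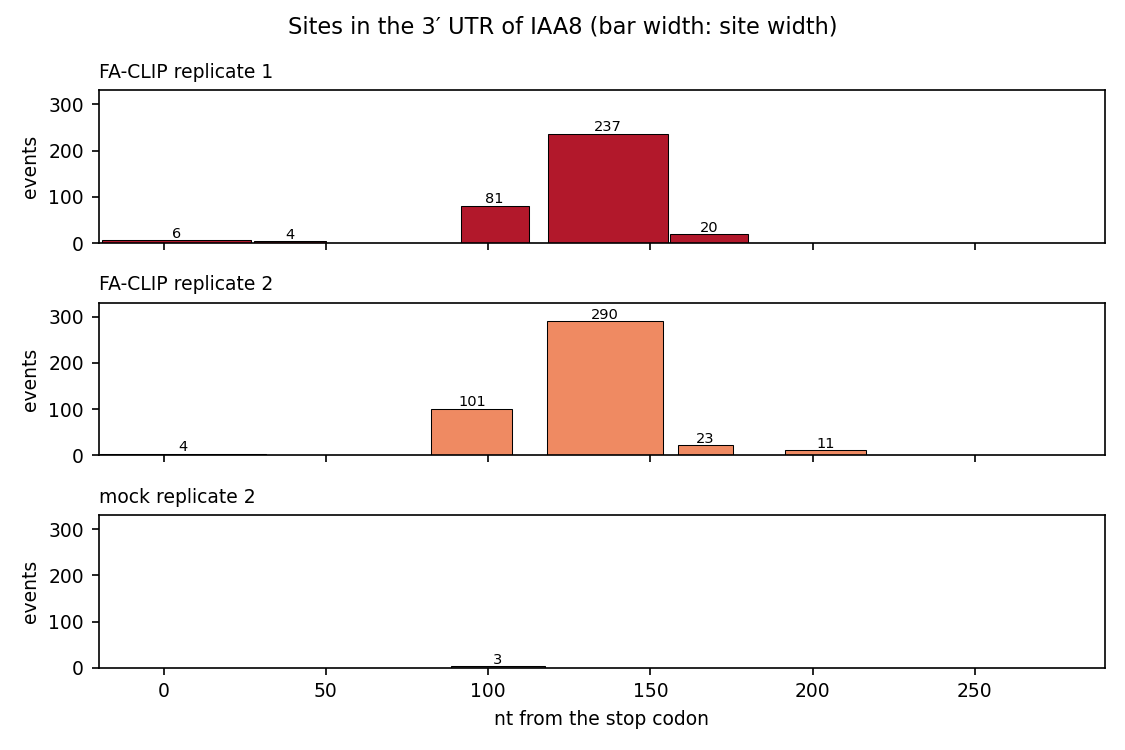
Conversion events of each site in the 3′ UTR of IAA8 by distance from the stop codon, in FA-CLIP replicate 1, FA-CLIP replicate 2 and mock replicate 2, with bar width equal to site width. The tallest bars have 237 and 290 events in FA-CLIP, and the only mock site has 3 events. Mock replicate 1 listed none.

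IAA9, IAA17 and IAA16 had no site with over 50% of the events in either library. IAA9 had 30 and 60 events in a broad 185-nt site centred 213 nt after the stop codon, and 26 and 42 in a 97-nt site centred 34 nt after it. Each of these joins several listed sites. IAA7 had 22 and 40 of its 42 and 63 events, 52.4% and 63.5%, in a 115-nt site centred 133 nt after the stop codon. That site also joins several listed sites, and the largest single one held 26.2% and 31.7% of the gene's events. The leading IAA8 site, by contrast, was a single listed site in each library. IAA17 had 4 sites of 5 to 21 events per library, spaced along 107 to 239 nt after the stop codon.

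IAA16 had its largest site 212 nt after the stop codon, with 11 and 21 events. IAA27 had a single reproducible site, 166 nt after its stop codon, with 21 and 26 of its 21 and 31 events. The one IAA14 site held 4 and 7 events and rests on a 9-nt overlap, so it was not counted where 50% of each site had to overlap, at which 6 of the 10 genes were left.

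Mock sites in these genes were few. Mock replicate 2 listed 1 site each in IAA8 (3 events), IAA9 (2 events) and IAA16 (2 events), and mock replicate 1 listed 1 in IAA2 (2 events). Of the 31 reproducible sites 2 overlapped one of them. These were the second IAA8 site, with 81 and 101 events in FA-CLIP against 3 in mock replicate 2, and a CDS site of IAA9 with 4 and 6 events against 2. The strongest IAA8 site overlapped no mock site. IAA17, IAA7, IAA27 and IAA14, 4 of the 7 genes with a reproducible site, had no mock site at all, against 89.2% of the 8396 genes with a reproducible site.

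Motif matches were counted in the 31 reproducible sites, on the transcript strand, beside those in 20534 reproducible sites of all nuclear protein-coding genes. URUAY was present in 8 of 31 sites, 25.8% (95% exact interval 11.9 to 44.6), beside 28.5% of all sites. UGUAY (UGUAN with C or U as last base), a subset of URUAY, was in 16.1% beside 18.7%, and UGUAA in 16.1% beside 13.3%. DRACH was in 14 of 31, 45.2% (27.3 to 64.0), beside 58.9%, and RRACH (NNACN with A or G as first and second and no G as last base), all of whose matches are also DRACH matches, in 41.9% beside 46.6%. GGAU was in 16.1% beside 15.3% and UUUUU in 19.4% beside 22.2%. All intervals span the shares over all sites, and member sites are slightly narrower, with a median width of 40 nt against 48 nt.

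Matches to URUAY came from 4 genes. They were 2 sites of IAA17, 3 of IAA16, 2 of IAA7 and 1 of IAA9. The 11 IAA8 sites held none, and 5 of them held a DRACH match, among them the site with the most events. No match says only that these letters are absent from the window.

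Close paralogs can share reads, so member sites were searched for repeats. Of 1463 stretches of 20 nt in sites of that length or more, 5 occur elsewhere in the genome, 3 in IAA8 and 2 in IAA9. Of 93 distinct sites of 20 nt or more, 89 held none of these.

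The rest of the auxin pathway was described from lists, with the 3 genes of the most FA-CLIP events named from each. Counts of calls below, unless another library size is named, stand beside 90.3% of all genes tested called higher. Counts of reproducible sites stand beside 31.5% of all nuclear protein-coding genes, a share over genes of any input. It was 57.7% between 5 and 10 FPKM, 76.1% between 10 and 25 FPKM and 85.2% between 50 and 80 FPKM. Median input was 13.5 FPKM for the auxin receptor genes, 45.3 for the SCF subunits, 8.70 for the corepressors, 4.98 for the ARFs and 2.31 for the GH3 genes. No excess over genes of like input is read from these counts. Among the 19 other Aux/IAA genes 4 had a reproducible site, and 5 of 5 tested were called higher by edgeR, as 90.3% of all genes tested were. IAA13 (AT2G33310) had 62 and 35 events, IAA18 (AT1G51950) 12 and 26, and IAA12 (AT1G04550) 14 and 19, all with no mock site. Input of this list was low, with a median of 1.87 FPKM against 22.1 for the 10 genes above.

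Among 6 auxin receptor genes 4 had a reproducible site, but 1 where 50% of each site had to overlap, and 5 of 5 tested were called higher, beside 90.3% of all genes tested. TIR1 had 71 and 63 events in FA-CLIP, AFB2 6 and 30, and AFB3 14 and 8, with none in mock. All 3 SCF subunit genes had one and were called higher, with 339 and 274 events for SKP1 (ASK1), 78 and 60 for the scaffold CUL1 and 52 and 87 for the RING subunit RBX1. Mock listed none of the 3.

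Of 5 TOPLESS-type corepressor genes 3 had a reproducible site and 3 of 3 tested were called higher, beside the same 90.3%. FA-CLIP had 33 and 30 events for TPL, 11 and 29 for TPR2 and 16 and 20 for TPR4, and none in mock. Of 15 ARF genes 9 had one, but 4 with the 50% overlap, and 10 of 10 tested were called higher, beside 90.3% of all genes tested. ARF2 had 77 and 51 events and ARF8 26 and 35, with none in mock, and ARF6 had 12 and 19 in FA-CLIP against 3 and 0 in mock. Of 7 GH3 genes, which conjugate auxin to amino acids and include early auxin-induced genes, only GH3.17 had a reproducible site, with 25 and 53 events in FA-CLIP. GH3.6 had 5 and 2 events and GH3.5 had 2 and 0.

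No gene of these lists was called lower. With nuclear protein-coding events as the library size, edgeR called 31.6% of all genes tested higher. Among them were 1 of 5 other Aux/IAA genes, 1 of 5 receptors and 3 of 3 SCF subunits tested. From the other lists they were 1 of 3 corepressors, 2 of 10 ARFs and 1 of 1 GH3 genes tested. In events per kb of transcript SKP1 came to 273 and IAA8 to 271, at a mean input of 146 ± 22.7 FPKM for SKP1 and 62.1 ± 5.31 for IAA8 (SD, n = 2).

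The 3 genes nearest to IAA8 over the 6 libraries, by Euclidean distance of log2 of value plus 1, were AT4G02450 at 0.885, AT3G58610 at 0.927 and PEX13 (AT3G07560), a peroxin, at 0.938. AT4G02450 had 344 and 401 events in FA-CLIP, 0 and 2 in mock and 44.6 and 43.2 FPKM in input. AT3G58610 had 341 and 450 events in FA-CLIP, and PEX13 had 367 and 282.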

How the data were processed

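FA-CLIP, mock and input RNA of 14-day-old Arabidopsis seedlings was analysed, 2 libraries each. The deposited FA-CLIP and mock files list sites with counts of conversion events, per the file headers, as unscaled whole numbers with a minimum of 2. The authors' deposited input values are read as FPKM, inferred from the header layout and the values, and the depth behind them is unknown. The submitters' processing notes name cutadapt, Bowtie and TAIR10; which program called the sites, which quantified input and which annotation was used is not given in the sources used here.

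Repeat listings of a site under further transcripts were dropped, and events were summed per gene. Site coordinates were read as 1-based, since G, after which RNase T1 cuts, was most frequent just before the first base and at the last base. Regions were taken from RefSeq models (TAIR10.1). Counts were tested with edgeR 4.0.16 (R 4.3.3), with total events as library size and genes of 10 or more events in all; DESeq2 1.42.0 was an alternative. The steps were tested on simulated data. FPKM and counts were joined only in the recovery score, which has no test; an exact permutation test of 2 against 2 libraries cannot go below p = 0.333. Replicates differed beyond counting noise in both FA-CLIP and mock (chi-square per degree of freedom 19.3 and 26.7), so none was counted as a duplicate. Intervals cover counting error only.

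The Aux/IAA genes and the other lists were chosen with earlier results of these data known. The genes named are all 10 members, the 3 genes with the most FA-CLIP events of each other list, and the 3 genes nearest to the leading member. IAA4 was added after its values were seen. All 65 list genes matched RefSeq symbols or synonyms.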

Additional observations from a re-analysis of the deposited data

How the results depend on the processing

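The number of Aux/IAA genes with a reproducible site was 7. It was 6 with 50% of each site overlapping, and 6 with only sites above the median number of events. Any site, reproducible or not, was listed for 8 of the 10 in FA-CLIP replicate 1 and 7 in replicate 2. In all, 10443 and 10912 nuclear protein-coding genes were listed there. The 8 include IAA2, with 2 events. The 3′ UTR share of Aux/IAA sites was 66.7%, and 48.2% and 61.2% in single FA-CLIP libraries, beside 58.8% and 70.5% for all genes. With the longest transcripts it was 71.0% beside 73.8%, and with 50% overlap 62.5% beside 74.2%. The deposited labels place the reproducible IAA7 site counted as CDS in the 3′ UTR, and the IAA7 site counted as 5′ UTR in the CDS. The median recovery score was -0.56, and -0.82 to -0.34 with 1 FA-CLIP or input library left out. Beside all genes (-0.94) it was -0.13 against -0.20 without division by length, and -0.89 against -0.98 with the longest transcripts, an alternative chosen after seeing the data. With no FPKM minimum it lay below all genes, -0.56 against -0.22. IAA8 stayed at percentile 97.1 to 98.6 of all genes, except at 83.4 with no FPKM minimum. Motif shares with 25 nt added on each side were 80.6% for DRACH beside 83.5% of all sites, 77.4% for RRACH beside 71.7% and 38.7% for UUUUU beside 37.3%, so RRACH and UUUUU stood above all sites there and below them without the added bases. In single FA-CLIP libraries (1, then 2) URUAY was in 14.0% and 14.0% beside 15.1% and 17.8% of all sites, UGUAY in 8.77% and 6% beside 9.24% and 11.2%, and UGUAA in 10.5% and 10% beside 6.34% and 7.82%. DRACH was in 36.8% and 34% beside 39.5% and 41.0%, RRACH in 28.1% and 26% beside 29.96% and 30.7%, GGAU in 15.8% and 10% beside 9.36% and 8.82%, and UUUUU in 12.3% and 12% beside 11.9% and 13.4%.

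In edgeR, Aux/IAA genes called higher numbered 7, with 7963 genes higher and 192 lower in all. With nuclear protein-coding events as library size these were 4, 2786 and 745. With the replicate number as a block they were 6, 3950 and 88, and IAA14 was lost (edgeR adjusted p = 0.305). Same-numbered libraries did not deviate together (r = -0.03 across 8821 genes), so the numbers are not taken to pair them. Leaving out 1 library gave 0 to 6 Aux/IAA genes, 0 to 7107 genes higher and 0 to 151 lower. The 0 came without either FA-CLIP replicate, where 1 library is assumed to vary like the mock pair. For the 7 genes tested singly, 42 values kept direction and call, 18 kept direction and lost the call, and none reversed. The cause of these losses was not tested. IAA14 had no adjusted p with DESeq2 and was not tested without either FA-CLIP replicate, so it is missing from the counts of values for those settings. Sites under 2 events are not in the lists, which limits what can be said of IAA1, IAA2 and IAA3.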
